A study of Mus musculus with 6 samples.

Results

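The nuclear genes for the mitochondrial respiratory chain and ATP synthase were described in colon tumours of Trim21 knockout mice, against tumours of wild-type mice. Members were all gene rows named as subunits of complex I (Nduf genes), complex II (Sdh), complex III (Uqcr and Cyc1), cytochrome c (Cycs), complex IV (Cox4 to Cox8 genes) and complex V (Atp5 genes), without rows named as pseudogenes. This gave 89 of the 26214 rows, namely 38 for complex I, 4 for complex II, 9 for complex III, 1 for cytochrome c, 20 for complex IV and 17 for complex V. Ndufa4 and Ndufa4l2 were counted with complex IV, where the Ndufa4 protein is now placed. RNA sequencing after removal of ribosomal RNA was done on 3 tumour samples of Trim21 -/- mice (knockout) and 3 of Trim21 +/+ mice (wild type). Mice of both genotypes had been given the carcinogen azoxymethane (AOM) and the colon irritant dextran sulfate sodium (DSS), so no sample is of untreated colon. No age, strain or sex is stated in the labels. Samples are called biological replicates, but the labels do not say that each is from a different mouse, and p-values here describe only the spread among the 6 samples.

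Complexes I to IV of the inner mitochondrial membrane pass electrons from NADH and succinate to oxygen, with ubiquinone and cytochrome c as mobile carriers, and complex V uses the resulting proton gradient to make ATP. Most subunits are encoded in the nucleus, and a small set of the subunits of complexes I, III, IV and V is encoded in mitochondrial DNA. Colonocytes, the absorptive cells of the colon surface, draw much of their energy from oxidation of butyrate in mitochondria. The mitochondrially encoded subunits were not analysed here. Trim21 is a ubiquitin ligase and cytosolic antibody receptor, and its loss is the only difference between the groups that the labels state.

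Libraries held 17937821 to 19987295 reads in knockout tumours and 27085599 to 29742757 reads in wild-type tumours, so the wild-type values have the smaller counting error. Levels are given as CPM, reads relative to the size of the library after TMM scaling, which corrects for library composition. Trim21 measured 12.1, 18.9 and 12.8 CPM in knockout replicates 1 to 3 and 29.8, 20.3 and 19.5 CPM in wild-type replicates 1 to 3, lower in each knockout library but not absent (log2 fold change -0.67, edgeR adjusted p = 0.418). Summed markers of epithelium (Epcam, Cdh1, keratins and others) lay between 6901 and 7048 CPM in knockout tumours and between 6512 and 7159 CPM in wild-type tumours. Wild-type replicate 3 stood apart. The 8 skeletal muscle markers summed to 3.72 to 11.4 CPM in the knockout libraries, against 9.76, 15.1 and 3093 CPM in wild-type replicates 1 to 3. The main results that it moves are also given without it.

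Promoter sequence is shown for 4 members on which the results below turn, since many nuclear respiratory genes share sites for the factors NRF1, GABP (an ETS factor, also called NRF-2) and YY1. Sequences are from RefSeq on GRCm38.p6, the assembly that mm10 denotes, from 250 bases before the start of the gene to 50 after it. They are Cox6a1 (chr5:115348909-115349208, minus strand) and Cox7b (chrX:106015450-106015749, plus strand), the common complex IV subunits with the smallest p, Ndufb1 (chr12:101975689-101975988, minus strand), the member with lower values in every knockout library, and Cox8b (chr7:140900397-140900696, minus strand), a muscle isoform. Capitals mark matches on either strand to the NRF1 motif (its 2 matches are the first 2 runs of capitals in Cox6a1 and differ at 1 base that is left free) or to 4 shorter motifs. The motif of ETS factors was searched as CCGGAAG. That of YY1 was AANATGGC, where N is any base. Oestrogen-related receptors (ERR) were searched as TCAAGGTCA. For the TATA box the letters were TATAAA, and overlaps between motifs were allowed.
Cox6a1: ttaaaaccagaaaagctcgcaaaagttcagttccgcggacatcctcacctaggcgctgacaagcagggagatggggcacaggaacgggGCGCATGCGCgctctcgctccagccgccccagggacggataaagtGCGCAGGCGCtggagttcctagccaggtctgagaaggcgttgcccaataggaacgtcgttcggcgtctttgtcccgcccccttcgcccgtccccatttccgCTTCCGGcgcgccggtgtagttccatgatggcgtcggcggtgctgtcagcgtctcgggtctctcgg
Cox7b: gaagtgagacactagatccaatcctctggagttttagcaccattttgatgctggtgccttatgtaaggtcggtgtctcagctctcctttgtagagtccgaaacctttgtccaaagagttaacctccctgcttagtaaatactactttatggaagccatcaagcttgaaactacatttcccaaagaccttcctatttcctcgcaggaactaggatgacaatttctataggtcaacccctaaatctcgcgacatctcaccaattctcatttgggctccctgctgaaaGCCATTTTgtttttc
Ndufb1: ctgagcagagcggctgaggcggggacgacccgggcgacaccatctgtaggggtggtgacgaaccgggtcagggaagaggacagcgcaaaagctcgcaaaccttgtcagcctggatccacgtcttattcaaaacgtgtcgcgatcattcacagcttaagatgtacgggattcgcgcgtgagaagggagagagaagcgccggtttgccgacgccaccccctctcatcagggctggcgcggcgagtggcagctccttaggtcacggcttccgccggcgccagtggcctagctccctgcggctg
Cox8b: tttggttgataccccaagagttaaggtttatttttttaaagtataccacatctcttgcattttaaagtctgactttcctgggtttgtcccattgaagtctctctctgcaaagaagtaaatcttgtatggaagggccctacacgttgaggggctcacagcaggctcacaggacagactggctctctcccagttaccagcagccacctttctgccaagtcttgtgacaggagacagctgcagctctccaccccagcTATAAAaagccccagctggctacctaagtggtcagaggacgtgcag
The Cox6a1 window held 2 NRF1 matches and 1 ETS match, and the Cox7b window 1 YY1 match. The Ndufb1 window held none of the 5 motifs, and the Cox8b window held only a TATA box. RefSeq windows were matched for 70 of the 89 members, 75 windows in all. An NRF1 match was found in 24% of them, against 4.6% of all 32851 windows and 6.38% of the 21263 windows of protein-coding genes. ETS matches were in 22.7% of member windows and 8.86% of all windows, YY1 matches in 22.7% and 6.05%, and ERR matches in 2.67% and 0.423%. TATA boxes were in 12% of member windows and 13.6% of all windows. A match is a stretch of letters, and no binding was measured here.

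Transcripts of the respiratory chain differed little between knockout and wild-type tumours. Of the 89 members, 84 passed the filter on low counts, and 0 of these passed edgeR's quasi-likelihood test at an adjusted p under 0.05. The background over all 16281 genes tested was 0%. At an unadjusted p under 0.05 edgeR found 1 member higher (Cox4i2) and 1 lower (Ndufb1), where 6.63% of all genes were higher and 4.12% lower. Cox4i2 depended on its knockout values to pass the filter on low counts. DESeq2 called 0 of 85 members, beside 1.41% of all genes higher and 0.543% lower. The linear-model test limma-voom called 0 of 84 members and 0% of all genes. With sample weights it again called 0 of 84 members, and over all genes 0% higher and 0.00614% lower.

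The data bound the size of any change. For 70 of the 84 tested members (83.3%) the 95% interval of the fold change, from the edgeR fit, lay within 1.5-fold of no change in both directions, against 45.6% of all genes tested. This is not particular to the members. The share was 98.8% for cytosolic ribosomal proteins, 94.1% for the citric acid cycle list and 91% for the mitochondrial ribosome. It was 75% for carriers and porins, 67.3% for assembly factors and 62.5% for regulators of mitochondrial genes. The median member had an interval reaching 1.24-fold to either side of its estimate. The within-group standard deviation of log2 CPM had a median of 0.16 over the members and 0.23 over all genes. The 14 tested members whose interval reached beyond 1.5-fold were the complex IV genes Cox4i2, Ndufa4l2, Cox5b, Cox6b2, Cox7a1 and Cox8a, the complex I genes Ndufa2, Ndufa5, Ndufb10, Ndufb4c, Ndufb7, Ndufc1 and Ndufs7, and the complex V gene Atp5g1. Only the Cox4i2 and Ndufb1 intervals left out 0.

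**Figure D1:**
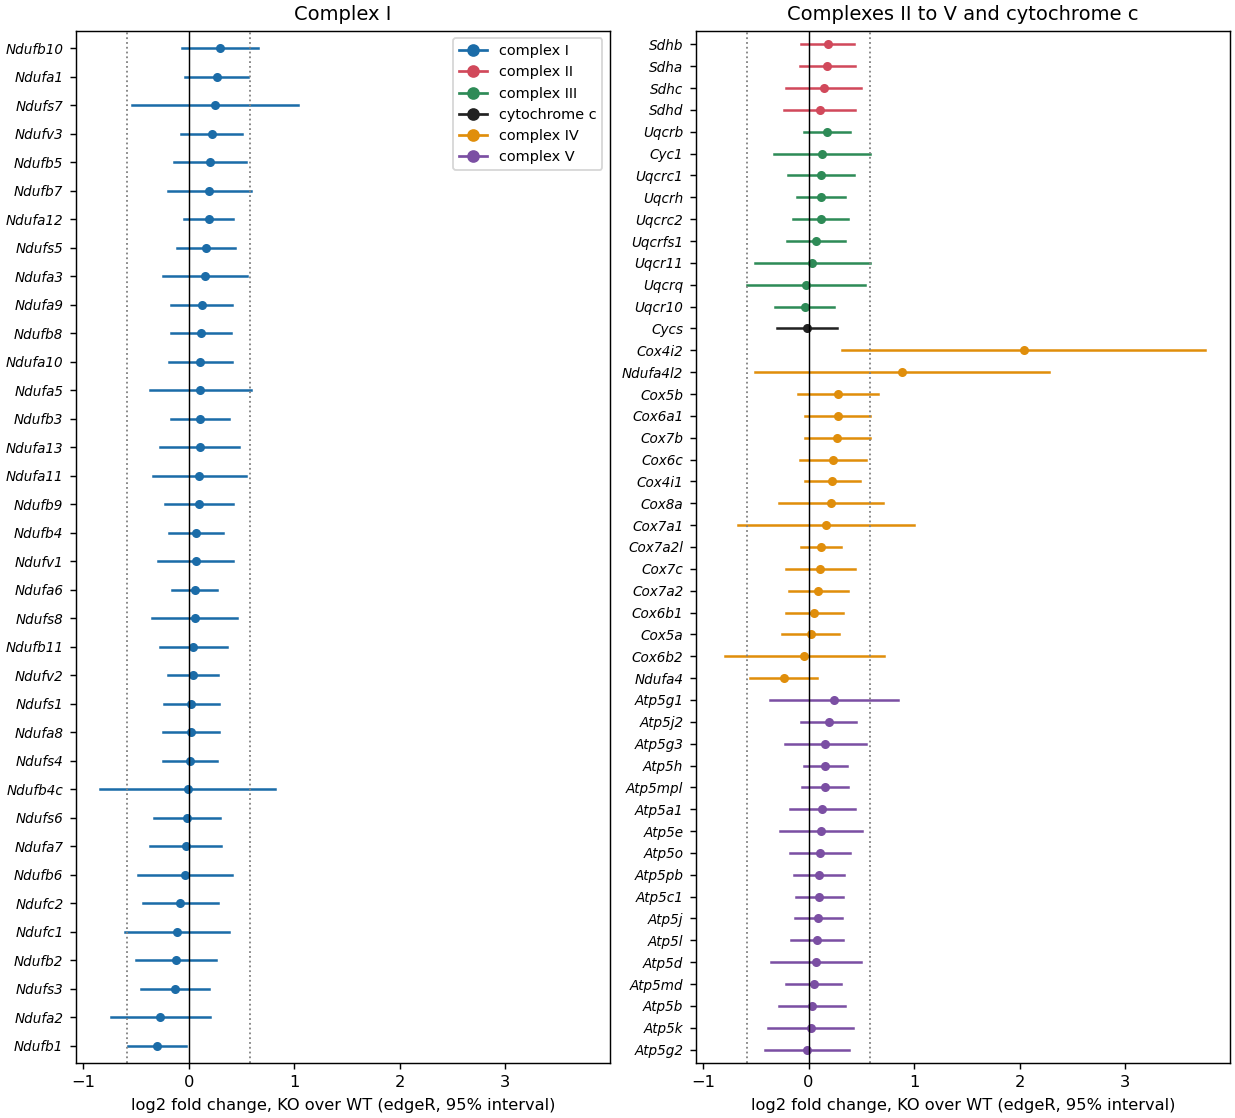
Log2 fold change of knockout (KO) over wild type (WT) for 83 of the 84 tested members, with the 95% interval of the edgeR fit, by complex. Dotted lines mark 1.5-fold in either direction. All points except those of Cox4i2 and Ndufa4l2 sit between the dotted lines, and Cox4i2 is the only member above 2 on this scale.

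Small differences leaned to higher values in knockout tumours. The log2 fold change was above 0 for 67 of 84 members and had a median of 0.105, where 47.9% of all genes were above 0 and the median was -0.013. By complex the median was 0.07 over 37 members of complex I, 0.16 over 4 of complex II, 0.11 over 9 of complex III, 0.19 over 16 of complex IV and 0.10 over 17 of complex V, and Cycs had -0.01. Without wild-type replicate 1 these medians were -0.01 for complex I, 0.07 for complex II, -0.01 for complex III, 0.08 for complex IV and 0.03 for complex V. Without wild-type replicate 3 they were 0.16, 0.21, 0.16, 0.30 and 0.16 in the same order. Groups did not overlap for 16 members higher in the knockout (19%, against 9.43% of all genes) and for 1 lower (1.19%, against 8.47%). Member transcripts move together between libraries, so these counts do not rest on 84 separate observations. Without wild-type replicate 1 the median was 0.0156 with 45 members above 0, and without knockout replicate 1 it was 0.027 with 49 above 0. Without wild-type replicate 3, the library with skeletal muscle markers, the median was 0.174, 77 members were above 0, and groups did not overlap for 28 higher members (33.3%, against 14.9% of all genes). That count was 16 without knockout replicate 1 (19%, against 16.2% of all genes), a share near that of all genes, and 17 without wild-type replicate 1 (20.2%, against 13.2%).

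The lean was uneven across libraries. Summed over all members, the level was 7711, 6545 and 6626 CPM in knockout replicates 1 to 3 and 5777, 6596 and 7207 CPM in wild-type replicates 1 to 3. The groups overlapped, and wild-type replicate 3 was above knockout replicates 2 and 3. Knockout replicate 1 was the highest library for 57 of the 84 tested members and wild-type replicate 1 the lowest for 56. Over all genes tested these libraries were highest for 19.5% and lowest for 24.6%. The median deviation of the members from their own mean was 0.19 (log2) in knockout replicate 1, -0.20 in wild-type replicate 1, 0.10 in wild-type replicate 3 and between -0.03 and 0 in the other 3 libraries.

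**Figure D2:**
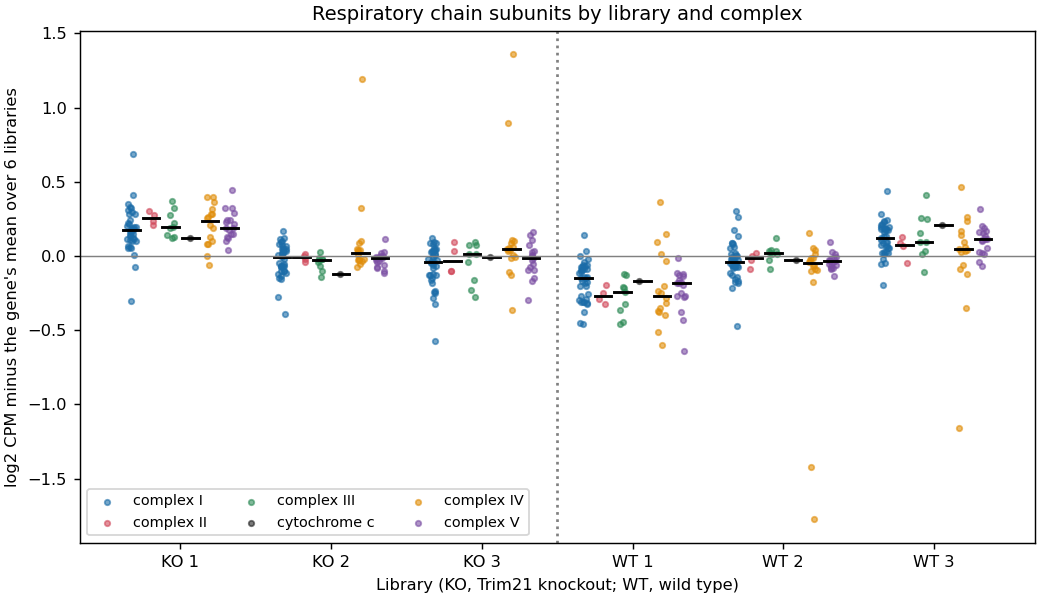
Log2 CPM of each tested member minus its mean over the 6 libraries, by library and complex. Black bars are medians. All complexes are raised in KO 1 and lowered in WT 1, and the far points of complex IV are Cox4i2 and Ndufa4l2.

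Wild-type replicate 1 was also the lowest library for markers of colonocytes and smooth muscle. The 10 colonocyte markers summed to 1092.8 to 1426.5 CPM in the knockout libraries, against 568.0, 784.9 and 878.8 CPM in wild-type replicates 1 to 3. Krt20 was the largest part of this sum in each library and had a log2 fold change of -0.05. The largest fold changes on that scale were 3.50 for Aqp8 and 2.48 for Car4. No colonocyte marker passed edgeR's test (smallest adjusted p = 0.181). The 11 smooth muscle markers summed to 972.7 to 1563.7 CPM in the knockout libraries, against 366.7, 882.4 and 648.1 CPM in wild-type replicates 1 to 3. Of the colonocyte markers 9 of 10 and of the smooth muscle markers 11 of 11 had a log2 fold change above 0. None of the 6 proliferation markers did, and they summed to 1085, 875.8 and 843.8 CPM in the knockout libraries and 1128, 887.2 and 1159 CPM in the wild-type libraries. The part of any of these in the respiratory chain values was not tested. In bulk tumour RNA, fewer cells of a type and less RNA per cell cannot be told apart.

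The proportions between complexes were alike in the 6 libraries. Complex V genes took 40.0% to 40.5% of the summed member CPM in the 6 libraries, complex I genes 19.6% to 21.01%, complex IV 14.5% to 15.3%, complex III 10.9% to 11.4%, complex II 8.28% to 8.86% and Cycs 4.64% to 5.30%. The level of the whole set varied between libraries more than its makeup did. Shares of complex II and complex IV were higher in each knockout library than in any wild-type library, at 8.86%, 8.66% and 8.71% in the knockout and 8.28%, 8.50% and 8.43% in the wild type for complex II. For complex IV they were 15.0%, 15.3% and 15.3% in the knockout and 14.5%, 14.8% and 14.6% in the wild type. These gaps were small, and the shares are parts of the same total, so they depend on each other. They were not tested.

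Complex I, which oxidises NADH, had 37 tested members, of which 26 were above 0. The 7 core catalytic subunits, which carry the flavin and iron-sulfur clusters, summed to 477.5 ± 53.4 CPM in knockout tumours, against 478.1 ± 49.1 CPM in wild-type tumours (SD, n = 3 each). The 31 accessory subunits summed to 907.0 ± 69.6 CPM in knockout tumours, against 856.9 ± 72.3 CPM in wild-type tumours. Neither difference exceeded the spread between replicates. The core subunit gene Ndufs7 was scattered within both groups, with 18.2, 12.6 and 7.55 CPM in knockout tumours, against 8.18, 10.7 and 13.3 CPM in wild-type tumours.

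Ndufb1 encodes an accessory subunit of the membrane arm and lies on chromosome 12 from 101968096 to 101975738. It measured 23.5, 27.7 and 27.3 CPM in knockout replicates, against 32.0, 30.8 and 33.6 CPM in the wild-type replicates. All 3 knockout values lay below all 3 wild-type values, and it was the only tested member with this pattern. On the log2 scale Ndufb1 was at -0.30 (standard error 0.12), and it did not pass edgeR's test (adjusted p = 0.437). GENCODE lists this locus under the symbol Ndufb1-ps, and RefSeq lists it as protein-coding.

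Ndufa1, an X-linked accessory subunit gene, measured 19.7, 17.4 and 18.4 CPM in knockout tumours, against 15.3, 16.1 and 14.8 CPM in wild-type tumours. The groups did not overlap, at a log2 fold change of 0.27 (standard error 0.13, edgeR adjusted p = 0.502). Ndufb10, another accessory subunit gene, measured 53.4, 45.9 and 46.0 CPM in knockout tumours, against 31.6, 41.4 and 45.0 CPM in wild-type tumours, with the low value in wild-type replicate 1. Its log2 fold change was 0.30 (standard error 0.15, edgeR adjusted p = 0.518). The other complex I genes higher in every knockout library were Ndufa6, Ndufa12, Ndufb3, Ndufs5 and Ndufv3, with log2 fold changes of 0.06, 0.19, 0.11, 0.17 and 0.22. Ndufs5 shares all 6 counts with the row Ndufs5-ps, 467 to 504 reads in knockout and 609 to 677 reads in wild-type libraries, so reads of the gene and of this copy cannot be told apart.

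Complex II oxidises succinate and also serves the citric acid cycle. All 4 subunits were above 0, and none passed edgeR's test. Sdha, the flavoprotein, measured 298.0, 250.7 and 275.4 CPM in knockout tumours, against 216.6, 242.5 and 269.2 CPM in wild-type tumours, so the groups overlapped. Sdhb, the iron-sulfur protein, measured 61.3, 52.2 and 53.4 CPM in knockout tumours, against 45.5, 51.2 and 50.5 CPM in wild-type tumours, without overlap (log2 fold change 0.18, standard error 0.11, edgeR adjusted p = 0.563). The membrane anchors Sdhc and Sdhd had log2 fold changes of 0.14 and 0.11. All 4 intervals stayed within 1.5-fold.

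Complex III passes electrons from ubiquinol to cytochrome c. Uqcrb, an accessory subunit near the ubiquinone site, measured 93.9, 81.2 and 88.2 CPM in knockout tumours, against 75.7, 80.9 and 76.8 CPM in wild-type tumours. Its groups did not overlap, and it was the only such member of complex III (log2 fold change 0.17, standard error 0.09, edgeR adjusted p = 0.528). Uqcrh, the hinge protein gene, and Uqcrc2, a core protein gene, had log2 fold changes of 0.12 and 0.11. The catalytic subunit genes Cyc1 (cytochrome c1) and Uqcrfs1 (the Rieske protein) had 0.13 and 0.07. Cycs, which encodes the soluble carrier cytochrome c that also acts in apoptosis, measured 359.8, 303.9 and 328.9 CPM in knockout tumours, against 293.9, 325.7 and 382.1 CPM in wild-type tumours. For Cycs the fold change was 0.991 with a 95% interval from 0.814 to 1.21.

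Of the 16 tested members of complex IV, cytochrome c oxidase, 14 were above 0. The median of 0.19 was 0.30 without wild-type replicate 3, 0.10 without knockout replicate 1, and 0.08 when wild-type replicate 1 was left out. It was above that of complex II with all libraries (0.19 and 0.16), but below it without wild-type replicate 2 (0.17 and 0.18) and with a filter of at least 1 CPM in 3 libraries (0.15 and 0.16). That filter left out Cox4i2 and Ndufa4l2. Cox6a1, the common isoform of subunit VIa, measured 78.1, 69.7 and 67.8 CPM in knockout tumours, against 50.1, 60.9 and 67.1 CPM in wild-type tumours. Cox7b, an X-linked subunit gene, measured 126.1, 104.8 and 105.4 CPM in knockout tumours, against 78.5, 102.5 and 97.1 CPM in wild-type tumours. Cox4i1, the common isoform of subunit IV, measured 186.1, 160.3 and 160.4 CPM in knockout tumours, against 128.2, 146.8 and 159.0 CPM in wild-type tumours. For all 3 genes wild-type replicate 1 was the lowest library, and the gap between the groups was small. Log2 fold changes were 0.28, 0.27 and 0.22, with edgeR adjusted p of 0.500, 0.502 and 0.509. Cox7a2l, which takes part in joining complexes III and IV, was the other common gene without overlap (0.12). Ndufa4 had a log2 fold change below 0, at 57.3, 57.5 and 44.4 CPM in knockout tumours, against 63.5, 56.4 and 67.5 CPM in wild-type tumours, with overlapping groups.

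**Figure D3:**
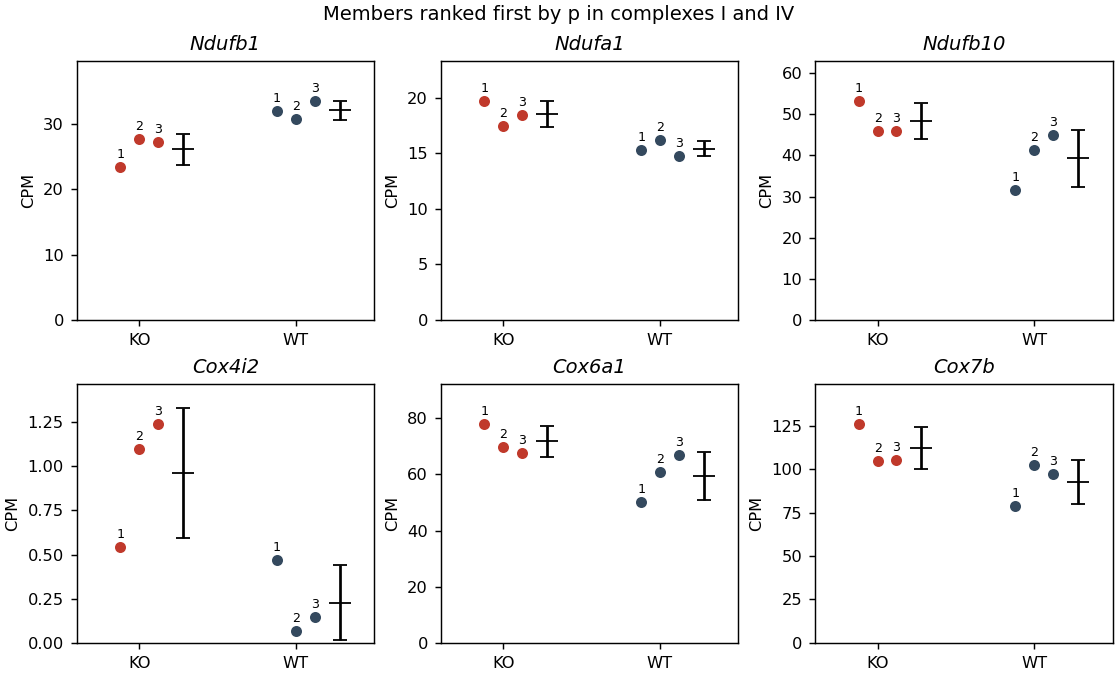
CPM in each library for the members with the smallest p in complex I (upper row) and complex IV (lower row), knockout (KO) left of wild type (WT). Numbers are replicates, and bars are mean ± SD, n = 3. Ndufb1 is lower in all 3 KO libraries, and Cox4i2 is below 1.3 CPM in each library.

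Low-level isoforms showed the widest relative differences. Cox4i2, an isoform of subunit IV known in mice from lung and from pericytes (mural cells of small vessels), lies on chromosome 2 from 152753916 to 152765039. It had 11, 20 and 24 reads in knockout tumours, against 14, 2 and 4 reads in wild-type tumours, with wild-type replicates 2 and 3 the lowest. These are 0.546, 1.10 and 1.24 CPM in knockout tumours, against 0.470, 0.0677 and 0.148 CPM in wild-type tumours. The groups did not overlap, but knockout replicate 1 and wild-type replicate 1 were close. Cox4i2 passed the filter on low counts through the knockout values, so its entry into the test depended on the group where it is high. With a filter of at least 1 CPM in 3 libraries it was not tested. The log2 fold change was 2.04 with a 95% interval from 0.32 to 3.76 (edgeR adjusted p = 0.418). For Cox4i2 it was 3.10 without wild-type replicate 1 and between 1.61 and 2.33 without any other single library. Ndufa4l2, a hypoxia-induced relative of Ndufa4 that is also known from pericytes, had 16, 16 and 26 reads in knockout tumours, against 27, 6 and 14 reads in wild-type tumours. Its log2 fold change of 0.88 had an interval from -0.51 to 2.28, and Ndufa4l2 was at 1.47 without wild-type replicate 1.

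Pericyte markers also had higher values in the knockout. The 6 markers were all above 0 with a median log2 fold change of 0.45, and they summed to 428.4, 465.2 and 570.3 CPM in knockout tumours, against 310.1, 355.1 and 382.3 CPM in wild-type tumours. The marker Rgs5, which made up most of this sum, measured 301.0, 300.7 and 376.5 CPM in knockout tumours, against 188.7, 230.8 and 260.0 CPM in wild-type tumours. Groups did not overlap for 2 of the 6 markers (33.3%, against 9.43% of all genes), and overlapped for Pdgfrb, Notch3, Kcnj8 and Abcc9. Wild-type replicate 1 had the lowest pericyte sum but the most Cox4i2 and Ndufa4l2 reads of the wild-type libraries. The 6 leukocyte markers were also all above 0, with a median of 0.30. No pericyte marker passed edgeR's test (smallest adjusted p = 0.347). Their part in the Cox4i2 and Ndufa4l2 values was not tested. Per length, Cox4i2 made up 0.573%, 1.33% and 1.499% of the Cox4i1 and Cox4i2 level in the knockout and 0.716%, 0.0906% and 0.183% in the wild type. Cox4i1 thus gave nearly all of the transcript level of this subunit in each library, and protein was not measured.

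The muscle isoforms Cox6a2 and Cox8b of complex IV were found almost entirely in wild-type replicate 3. Cox6a2, the heart and skeletal muscle form of subunit VIa (chromosome 7 from 128205435 to 128206366), had 0, 0 and 5 reads in knockout tumours, against 0, 0 and 130 reads in wild-type tumours. Cox8b, the muscle form of subunit VIII (chromosome 7 from 140898942 to 140900446), had 0, 1 and 0 reads in knockout tumours, against 0, 0 and 54 reads in wild-type tumours. A count of 0 allows up to 3 reads, or 0.149 to 0.165 CPM in knockout tumours, against 0.101 and 0.102 CPM in wild-type replicates 1 and 2. Neither gene passed the filter, so neither was tested. Per length, Cox6a2 made up 6.90% of the Cox6a1 and Cox6a2 level in wild-type replicate 3, and Cox8b 4.10% of the Cox8a and Cox8b level. Cox7a1, the third muscle isoform, was in every library, at 3.82, 2.97 and 2.64 CPM in knockout tumours, against 1.88, 2.54 and 4.00 CPM in wild-type tumours. The log2 fold change of Cox7a1 was 0.16 with all libraries, 0.51 without wild-type replicate 3 and -0.06 without wild-type replicate 1.

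The same library was highest for skeletal muscle genes outside the respiratory chain. Myh4, a fast skeletal myosin, measured 3.08, 1.70 and 0.0517 CPM in knockout tumours, against 2.62, 4.81 and 1418 CPM in wild-type tumours. Ckm, muscle creatine kinase, measured 0.843, 0.220 and 0.621 CPM in knockout tumours, against 0.570, 0.846 and 255.7 CPM in wild-type tumours. The mitochondrial carrier gene Ucp3, known from skeletal muscle, had 3, 0 and 2 reads in knockout tumours, against 12, 5 and 244 reads in wild-type tumours. Slc25a4, the ADP/ATP carrier of heart and muscle, measured 67.8, 64.7 and 59.1 CPM in knockout tumours, against 95.4, 61.4 and 147.3 CPM in wild-type tumours. Its log2 fold change of -0.67 (edgeR adjusted p = 0.468) was -0.30 without wild-type replicate 3. Markers of fat, including Ucp1 with 0 reads in 5 of 6 libraries, summed to at most 2.73 CPM.

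**Figure D4:**
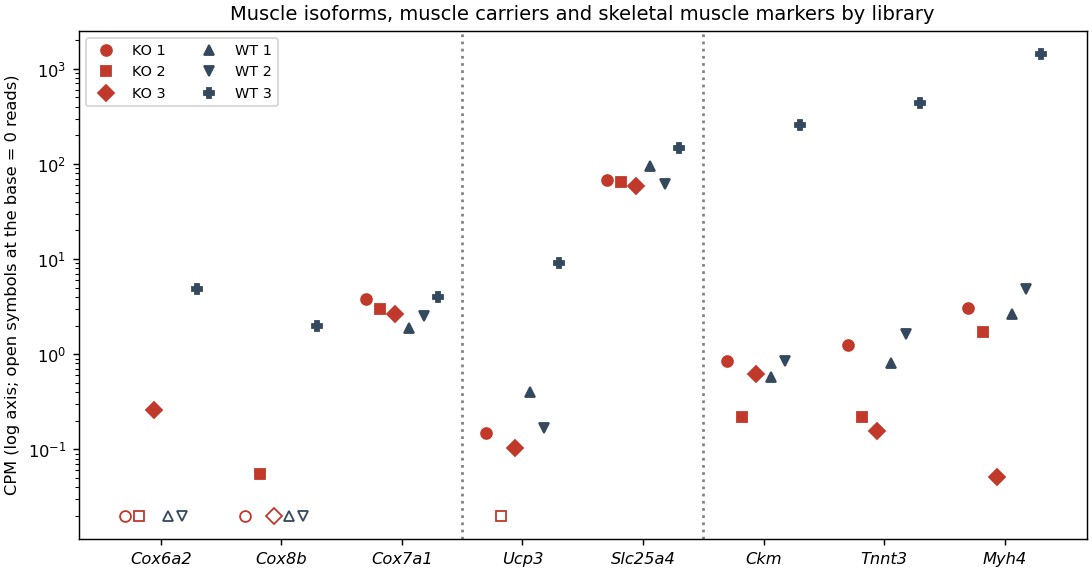
CPM on a log axis in each library for the muscle isoforms Cox6a2, Cox8b and Cox7a1 (left), the carriers Ucp3 and Slc25a4 (middle) and the skeletal muscle genes Ckm, Tnnt3 and Myh4 (right). Open symbols at the base are 0 reads, and WT 3 (plus sign) is the highest library for each of the 8 genes.

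Testis isoforms were at or near 0. Cox7b2 and Cox8c had 0 reads in all 6 libraries, as did Ndufa11b, which RefSeq lists as a transcribed pseudogene. Cox6b2, known from testis, was steady at 1.24, 1.26 and 1.34 CPM in knockout tumours, against 1.31, 1.46 and 1.19 CPM in wild-type tumours. Its common counterpart Cox6b1 had 100.9 ± 6.64 CPM in knockout tumours, against 97.3 ± 11.8 CPM in wild-type tumours. Cox7a2 and Cox8a, the common forms of the muscle genes above, had log2 fold changes of 0.09 and 0.21, and Cox8a was at 0.42 without wild-type replicate 3 and 0.04 without wild-type replicate 1.

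Complex V, ATP synthase, had 16 of 17 members above 0, and 16 of 17 intervals stayed within 1.5-fold. The genes of the catalytic F1 head, Atp5b (beta) and Atp5a1 (alpha), were the most abundant members in reads. Atp5b measured 863.8, 707.0 and 696.7 CPM in knockout tumours, against 656.9, 727.8 and 835.3 CPM in wild-type tumours, with fully overlapping groups (fold change 1.02, 95% interval 0.823 to 1.27). Atp5a1 had 737.2 ± 77.4 CPM in knockout tumours, against 672.5 ± 86.4 CPM in wild-type tumours. Atp5h, the peripheral stalk subunit d, measured 84.1, 83.2 and 91.3 CPM in knockout tumours, against 74.3, 78.1 and 79.4 CPM in wild-type tumours. The groups did not overlap (log2 fold change 0.16, standard error 0.09, edgeR adjusted p = 0.536), and the same held for the small membrane subunit gene Atp5mpl (0.15). Atp5j2, subunit f of the membrane part, had 0.19 with overlapping groups.

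Atp5g1, Atp5g2 and Atp5g3 encode the same mature c-ring protein with different import sequences. Per length, Atp5g3 gave 58.8%, 59.8% and 62.3% of their summed level in the knockout and 54.6%, 60.6% and 58.2% in the wild type. Atp5g2 gave 30.02% to 32.8% in the knockout and 32.0% to 39.4% in the wild type, and Atp5g1 gave 7.73% to 8.49% in the knockout and 5.94% to 8.59% in the wild type. These shares divide by union exon lengths of 4912 bp for Atp5g1, 1675 bp for Atp5g2 and 2181 bp for Atp5g3. The coding lengths are alike, at 408, 438 and 423 bp, so the size of each share depends on the length used. The order Atp5g3, Atp5g2, Atp5g1 was the same in each library, and none of the 3 passed edgeR's test (log2 fold changes 0.16, -0.02 and 0.24). Atp5g1 measured 31.0 to 46.8 CPM in knockout tumours, against 22.0 to 42.8 CPM in wild-type tumours, with wild-type replicate 1 the lowest. The log2 fold change of Atp5g1 was 0.49 without wild-type replicate 3 and 0.03 without wild-type replicate 1.

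Per kilobase of exon, members of a complex spanned wide ranges. The median level was 21.9 CPM per kb over the 37 tested members of complex I. Medians were 43.9 over complex II (Sdhd highest, at 151.2), 69.8 over complex III (Uqcrb, 94.5), 42.5 over complex IV (Cox6b1, 140.0) and 38.7 over complex V (Atp5a1, 224.8), and Cycs was at 97.6. Uqcrb and the next member Uqcrfs1 did not differ beyond their spread, at 100.2 ± 7.28 and 95.3 ± 8.17 CPM per kb in knockout tumours, against 88.8 ± 3.10 and 90.6 ± 11.0 CPM per kb in wild-type tumours. These levels divide by the union of all annotated exons. With the longest transcript instead, the top member was Cox4i1 in complex IV and Atp5b in complex V, so the order within a complex depends on the length used.

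**Figure D5:**
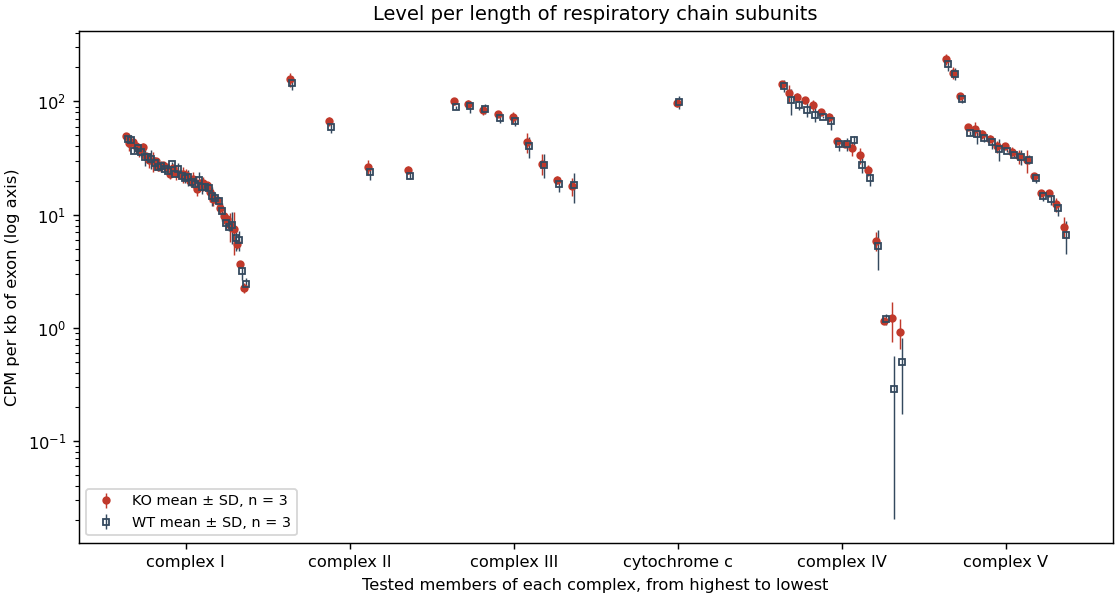
Level per kilobase of exon (log axis) for 83 of the 84 tested members by complex, from highest to lowest, as mean ± SD of 3 knockout (KO) and 3 wild-type (WT) libraries. KO and WT points lie close together for most members, and Cox4i2 and Ndufa4l2 at the low end of complex IV are the farthest apart.

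Genes that build or feed the respiratory chain showed no gene past the test. Of 52 tested assembly factors, 24 were above 0 and the median log2 fold change was -0.01. Groups did not overlap for 3 of them higher (5.77%, against 9.43% of all genes) and 3 lower (5.77%, against 8.47%). Cox10, which makes the haem of complex IV, measured 26.1, 18.9 and 20.4 CPM in knockout tumours, against 13.7, 16.6 and 15.0 CPM in wild-type tumours, without overlap (0.53, standard error 0.17, edgeR adjusted p = 0.379). Lyrm7, an assembly factor of complex III, had 0.57 (edgeR adjusted p = 0.455). The 17 genes of the citric acid cycle and pyruvate dehydrogenase had a median of 0.06 with 12 above 0, and Suclg2 (0.30) and Idh3a (-0.18) had the smallest p. The 78 mitochondrial ribosome genes had a median of -0.05 with 29 above 0, led by Mrpl50 (-0.22) and Mrpl3 (-0.21), which were lower in every knockout library. Such a pattern was seen for 7 of the 78 (8.97%), a share near that of all genes (8.47%). In the higher direction it was seen for 2 (2.56%, against 9.43%). The 81 tested cytosolic ribosomal protein genes, which are also short and abundant, had a median of -0.03 with 25 above 0, and Rps27l (-0.19) and Rpl15 (-0.14) ranked first. Ndufab1, the acyl carrier subunit of complex I, and Atpif1, the inhibitor of ATP synthase, do not match the naming rule and both had a log2 fold change of 0.00 (edgeR adjusted p = 0.997 and 0.993). No gene of these lists passed edgeR's test.

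Regulators of mitochondrial genes were mixed, with 8 of 16 above 0 and none past edgeR's test. Groups did not overlap for 3 of the 16 in the higher direction (18.8%, against 9.43% of all genes) and for 1 in the lower (6.25%, against 8.47%). The lower gene was Pprc1, at 78.6, 66.4 and 63.5 CPM in knockout tumours, against 79.8, 84.6 and 78.9 CPM in wild-type tumours. Its log2 fold change was -0.22 (edgeR adjusted p = 0.503). Ppargc1b, a coactivator that raises mitochondrial gene expression, measured 76.4, 56.5 and 76.8 CPM in knockout tumours, against 21.8, 52.5 and 38.0 CPM in wild-type tumours, without overlap (log2 fold change 0.90, standard error 0.30, edgeR adjusted p = 0.397). Ppara, a receptor that controls fatty acid oxidation, measured 14.5, 8.24 and 11.6 CPM in knockout tumours, against 2.65, 6.23 and 7.90 CPM in wild-type tumours, also without overlap (1.03, edgeR adjusted p = 0.438). Wild-type replicate 1 was the lowest library for both genes, as it was for most subunits. The related coactivator Ppargc1a had 30.1, 43.5 and 43.8 CPM in knockout tumours, against 49.0, 30.4 and 33.4 CPM in wild-type tumours, with wild-type replicate 1 the highest. Nrf1, Gabpa and Yy1, whose motifs were counted in the promoters, had log2 fold changes of 0.11, -0.10 and -0.11. Tfam, which maintains mitochondrial DNA, had 0.00. Of 8 tested carriers and porins 5 were above 0, with a median of 0.07. Slc25a5, the common ADP/ATP carrier gene, measured 858.0, 719.5 and 771.1 CPM in knockout tumours, against 550.6, 686.8 and 709.5 CPM in wild-type tumours (0.27, edgeR adjusted p = 0.498).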

How the data were processed

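The authors deposited a table of raw read counts per gene symbol for each of 6 samples, with whole numbers and no normalization. Per the submitters' processing notes, mm10, TopHat2, edgeR and limma were used. No source used here gives versions, the read counter, its strand setting or its handling of reads with several matches. Copies of subunit genes elsewhere in the genome and overlapping genes are therefore uncertain.

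Counts were analysed in R 4.3.3 with edgeR 4.0.16 (TMM, filterByExpr, quasi-likelihood test, two-sided, Benjamini-Hochberg over 16281 genes, threshold 0.05), with the 6 libraries in 1 fit and genotype as its sole factor. CPM was computed here from the deposited counts. Log2 fold changes are knockout over wild type. Standard errors are the log2 fold change divided by the root of F, and 95% intervals use the fit's degrees of freedom. The intervals of fold changes reflect the spread of 3 samples a group, and the limit for a count of 0 covers counting error only. DESeq2 1.42.0 and limma 3.58.1 were alternatives, and the fit was tested on simulated data. Exon lengths come from GENCODE M21, found for 89 members, 3 of them by a synonym, and gene coordinates and promoters from RefSeq on GRCm38.p6.

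Members and lists were chosen with earlier results of these data known. Named genes are, per complex, the 3 with the smallest p and the highest per length, all members of a complex of 4 or fewer, isoforms with a tissue-specific counterpart, the first 2 of each list, and Trim21. Others named by value were chosen after their values were seen. The 2 rows named as pseudogenes were left out. Of the tested members, 1 enters the fits and sums but is not reported here by itself.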

Additional observations from a re-analysis of the deposited data

How the results depend on the processing

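No member passed the adjusted threshold under any of the 15 alternatives, which covered 3 scalings, 2 filters, 3 other tests, the replicate block and the omission of each library. Over all genes the number past the threshold was 335 with DESeq2, 1 with limma-voom with sample weights and 0 to 1 when single libraries were left out, the 1 without wild-type replicate 3. Without the edgeR filter, or with other scalings, medians moved by less than the spread between replicates. With 1 library omitted the member median lay between 0.0156 and 0.174, that of complex IV between 0.0833 and 0.301, that of complex I between -0.033 and 0.16, complex II between 0.0653 and 0.211, complex III between -0.0081 and 0.162, complex V between 0.0273 and 0.159, and Cycs between -0.0974 and 0.0927. Such omissions put the number of members above 0 between 45 and 77, those with an interval within 1.5-fold between 49 and 69, those higher without overlap between 16 and 28 (19% to 33.3%, against 13% to 16.2% of all genes), and those lower without overlap between 1 and 4 (1.19% to 4.76%, against 12% to 17.1%). The last 4 counts were chosen after seeing the data. With sample weights 55 members were above 0 and the member median was 0.03, with complex III at 0.0077. The cause of these shifts was not tested.

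Replicate numbers did not pair the samples, since same-numbered samples had deviations correlated at -0.147, -0.175 and -0.0734. With the replicate block 0 genes passed, the median of the members was 0.106, that of complex IV 0.219, and 52 members had an interval within 1.5-fold. For 46 named genes no call changed under any alternative that fitted them. Cox4i2 and Ndufa4l2 had no fit with the filter of at least 1 CPM in 3 libraries. Apart from DESeq2, with 335 genes past the threshold, each alternative called at most 1 gene, so a changed call was hardly possible there. Members with few reads, such as Cox4i2 with 2 to 24, are limited by depth.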
